A study of Mus musculus with 20 samples.

Results

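The 10 ERK target genes described here are Dusp6, Dusp4, Spry2, Spry4, Spred1, Etv4, Etv5, Egr1, Fos and Fosl1, and they were found as the probes whose gene name in the array files equals one of these symbols. All 10 had a probe, and 9 of them were among the 27161 genes tested. Spry4 had 1 probe, which was well above background on 0 of 20 arrays, and it is given no level. The study profiled total RNA from 10 mouse pluripotent lines on 1-colour Agilent arrays, 2 arrays to a line: 7 iPSC lines, reprogrammed from somatic cells, and 3 ESC lines, derived from embryos. The labels grade iPSC quality without giving the measure. KH2_OSKM, Nanog-GFP OSKM#2 and Oct4-GFP OSKM#2 carry the grade poor, Nanog-GFP SNEL#3 and BC_2 OSKM the grade good, and Oct4-GFP SNEL#1 and Nanog-GFP SNEL#2 the grade high. Oct4-GFP ESCs, KH2 ESCs and Nanog-GFP ESCs served as controls. OSKM (4 lines) stands for reprogramming with Oct4, Sox2, Klf4 and Myc, and SNEL (3 lines) for Sall4, Nanog, Esrrb and Lin28. Per the labels every line grew without feeder cells in 2i medium and received no further treatment, so all groups share the medium, and no array without it was analysed here. A label names a single line, and lines whose labels share a name (Nanog-GFP, Oct4-GFP or KH2) may share an origin.

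2i medium in its usual form contains an inhibitor of MEK, the kinase that phosphorylates ERK, together with an inhibitor of GSK3. In mouse ESCs, FGF4 made by the cells themselves activates ERK through FGF receptors and primes the cells for differentiation, and blocking MEK holds them in the naive state. Active ERK phosphorylates transcription factors of the ETS family and switches on immediate early genes such as Egr1 and Fos, and feedback inhibitors such as the DUSP phosphatases and the Sprouty and Spred proteins, along with the PEA3 factors Etv4 and Etv5. Their transcripts are therefore used as a readout of ERK output, and the question put to these arrays was how even that readout was across lines kept in the same medium.

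The sequences upstream of Dusp6, Spred1 and Fos are shown because these genes gave the largest correlations among the ERK targets across lines, positive between Dusp6 and Spred1 and negative between either of them and Fos. Each is the 250 bases before the gene's start, 5′ to 3′, from RefSeq (build GRCm38.p6), in which 5 of the 10 genes had an entry. Capitals mark matches, on either strand, to the ETS motifs GGAAGT and CCGGAA, the CRE half-site TGACG and the AP-1 motif TGANTCA.
Dusp6 (chr10:99262981-99263230, plus strand): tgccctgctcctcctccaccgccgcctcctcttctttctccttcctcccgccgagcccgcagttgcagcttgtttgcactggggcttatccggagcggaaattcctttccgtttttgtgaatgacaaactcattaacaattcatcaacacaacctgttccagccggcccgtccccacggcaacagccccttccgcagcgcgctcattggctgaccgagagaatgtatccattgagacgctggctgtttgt
Spred1 (chr2:117120821-117121070, plus strand): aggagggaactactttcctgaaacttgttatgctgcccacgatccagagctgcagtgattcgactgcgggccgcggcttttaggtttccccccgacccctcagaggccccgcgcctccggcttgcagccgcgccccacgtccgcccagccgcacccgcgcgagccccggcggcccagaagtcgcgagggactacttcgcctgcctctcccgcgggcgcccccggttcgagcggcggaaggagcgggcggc
Fos (chr12:85473640-85473889, plus strand): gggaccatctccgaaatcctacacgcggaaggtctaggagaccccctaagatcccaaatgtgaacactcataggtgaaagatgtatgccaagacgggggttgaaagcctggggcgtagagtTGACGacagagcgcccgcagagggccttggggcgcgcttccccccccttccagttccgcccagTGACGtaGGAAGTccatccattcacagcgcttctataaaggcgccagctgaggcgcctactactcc
The Fos window held 1 match to GGAAGT and 2 to TGACG, and one of the TGACG matches ends 2 bases before GGAAGT begins. The Dusp6 and Spred1 windows held 0 matches to these letters. Over the same window of all 32851 promoters in the table, 19.7% held GGAAGT, 12% CCGGAA, 17.8% TGACG and 6.75% TGANTCA. A match is a description of the letters and not a binding site.

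Levels below are log2 processed signals minus the 75th percentile of the array, so that 0 is the level of a probe at that percentile and a difference of 1 is a 2-fold difference. A level is compared only with the same probe in other lines. Unless an array is named, a value is the mean of the 2 arrays of a line. All 16 pluripotency markers, among them Pou5f1 and Nanog, were well above background on both arrays of every line, with list means between 4.92 and 5.42. The share of probes well above background ran from 48.9% to 77.2% over the arrays. KH2_OSKM had the least similar pair of arrays (r = 0.977 across genes, which are not independent replicates). RNA came from whole cultures, in which fewer cells with a transcript and less of it per cell cannot be told apart.

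The ERK target genes were not at one level across the lines. Of the 9 measured genes, 8 differed between lines by more than between the 2 arrays of a line (limma moderated F test, adjusted p from 8.76e-11 for Spry2 to 3.44e-06 for Etv5), and Fosl1 did not pass (adjusted p = 0.56). The same test called 61.5% of all genes, and the 8 of 9 are read against that. Nothing in the labels states that paired arrays stem from separate cultures, so these p-values measure the spread between arrays, which may be technical. The SD over the 10 lines had a median of 0.94 among the 9 genes, against 0.363 over all genes tested, and 7 of the 9 lay above that median. Etv4 (SD 1.74), Egr1 (1.43), Dusp6 (1.02), Fos (0.97) and Spry2 (0.94) had SDs larger than those of 91.9% to 99% of genes, and Spred1 (0.60) and Dusp4 (0.45) were above the median. Etv5 (0.30) and Fosl1 (0.24) were below it.

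**Figure D1:**
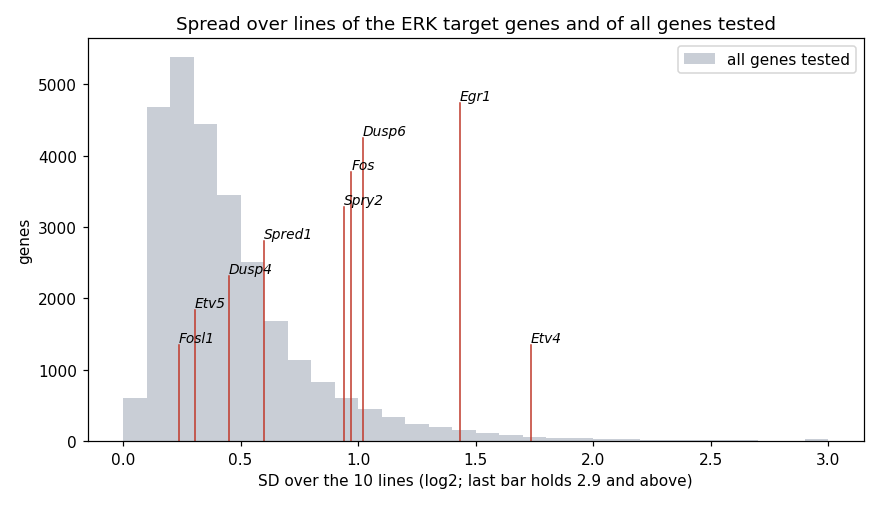
Histogram of the SD over the 10 lines (log2) of all 27161 genes tested, with a red line at the SD of each of the 9 measured ERK target genes; the height of a red line has no meaning. Egr1 and Etv4 sit in the thin right tail, and Etv5 and Fosl1 sit near the peak.

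Among the phosphatases, Dusp6, which dephosphorylates ERK in the cytoplasm, spanned 8.26-fold between its lowest and highest line. Its probe lies at chr10:98729985-98730044 (mm9, plus strand). Its level was 2.13 in Nanog-GFP OSKM#2, 2.69 in Oct4-GFP OSKM#2 and 0.18 in KH2_OSKM, all graded poor, and 0.73 in BC_2 OSKM and 3.21 in Nanog-GFP SNEL#3, both graded good. It was 3.23 in Nanog-GFP SNEL#2 and 1.68 in Oct4-GFP SNEL#1, graded high, against 2.46 in KH2 ESCs, 1.19 in Nanog-GFP ESCs and 2.11 in Oct4-GFP ESCs. The 2 highest lines were the Nanog-GFP SNEL lines and the 2 lowest were KH2_OSKM and BC_2 OSKM, so each grade of iPSC line held a high and a low level, and the ESC lines fell inside the iPSC range. The 2 arrays of a line were never more than 0.152 apart. Of the 9 pairs of neighbours in the order of levels, 2 overlapped between their arrays: Oct4-GFP ESCs with Nanog-GFP OSKM#2, and the Nanog-GFP SNEL lines with each other. The share of probes well above background, averaged over a line's arrays, was lowest in Nanog-GFP SNEL#3 (50.1%) and highest in KH2_OSKM (67.7%), near the opposite ends of the Dusp6 order. Nanog-GFP SNEL#2, highest in Dusp6, had 57.3%. Other lines departed from this, with 66.3% in Oct4-GFP OSKM#2 (Dusp6 2.69) and 58.8% in Oct4-GFP SNEL#1 (Dusp6 1.68). The part of this share in the Dusp6 order was not tested. In KH2_OSKM the share was 77.2% on one array and 58.3% on the other, and Dusp6 was 0.25 and 0.12 on them.

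Dusp4, a nuclear phosphatase that acts on ERK and other MAP kinases, ran in another order and over a narrower range of 2.39-fold. It was highest in Oct4-GFP ESCs (-0.22) and lowest in KH2 ESCs (-1.48), so its whole range was spanned by 2 ESC lines. KH2_OSKM and BC_2 OSKM, lowest in Dusp6, stood at -0.52 and -0.46, in the upper part of the Dusp4 order.

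Spred1, a membrane-bound inhibitor of Ras that recruits neurofibromin, had 2 probes, of which the brighter was used (chr2:117005906-117005965, mm9, plus strand), and the other followed it over the 10 lines with r = 0.98. Its level was 1.00 in Nanog-GFP OSKM#2, 0.71 in Oct4-GFP OSKM#2, -0.41 in KH2_OSKM, 0.21 in BC_2 OSKM, 1.18 in Nanog-GFP SNEL#3, 0.92 in Nanog-GFP SNEL#2 and -0.21 in Oct4-GFP SNEL#1, against 0.90 in KH2 ESCs, -0.26 in Nanog-GFP ESCs and 0.87 in Oct4-GFP ESCs. The lines fell into 6 with levels of 0.71 or more and 4 with levels of 0.21 or less, and the 4 low lines (KH2_OSKM, BC_2 OSKM, Oct4-GFP SNEL#1 and Nanog-GFP ESCs) were also the 4 lowest in Dusp6. Spry2, a Sprouty inhibitor of receptor tyrosine kinase signalling, stood out in the Nanog-GFP SNEL lines, at 1.35 in Nanog-GFP SNEL#3 and 1.02 in Nanog-GFP SNEL#2. In the other 8 lines it lay between -1.52, in Oct4-GFP SNEL#1, and -0.31, in KH2 ESCs. The fold between its lowest and highest line was 7.31. Spry4, its relative, was not well above background on any array.

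Etv4 and Etv5, PEA3 members of the ETS family and FGF targets in the embryo, differed in how far they varied. Etv4 spanned 32.4-fold. Its level was 4.98 in Nanog-GFP OSKM#2, 4.65 in Oct4-GFP OSKM#2, -0.04 in KH2_OSKM, 1.17 in BC_2 OSKM, 2.71 in Nanog-GFP SNEL#3, 0.84 in Nanog-GFP SNEL#2 and 2.38 in Oct4-GFP SNEL#1, against 3.51 in KH2 ESCs, 0.60 in Nanog-GFP ESCs and 3.36 in Oct4-GFP ESCs. The poor lines thus held both the 2 highest levels and the lowest one. Its 2 probes moved together (r = 0.999 over lines). Nanog-GFP SNEL#2, highest in Dusp6, had an Etv4 level above only those of KH2_OSKM and Nanog-GFP ESCs. Etv5 stayed within 1.79-fold, between 6.53 in Oct4-GFP ESCs and 7.37 in Nanog-GFP SNEL#2.

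The immediate early genes did not share one order. Egr1, a zinc finger transcription factor induced within minutes of ERK activation, spanned 29.9-fold. Its level was 0.70 in Nanog-GFP OSKM#2, -4.20 in Oct4-GFP OSKM#2, -1.28 in KH2_OSKM, -2.21 in BC_2 OSKM, -0.85 in Nanog-GFP SNEL#3, -0.63 in Nanog-GFP SNEL#2 and -2.005 in Oct4-GFP SNEL#1, against -2.75 in KH2 ESCs, -2.10 in Nanog-GFP ESCs and -3.46 in Oct4-GFP ESCs. Both ends of its range were poor OSKM lines, and 4 of the 7 iPSC lines were above -1.5 while every ESC line was below -2. Fos, an AP-1 subunit, was 0.48 in KH2_OSKM and 0.46 in Nanog-GFP ESCs, the 2 highest lines, and -2.08 in Nanog-GFP SNEL#3, the lowest. The others were -1.15 in Nanog-GFP OSKM#2, -1.79 in Oct4-GFP OSKM#2, -0.20 in BC_2 OSKM, -0.68 in Nanog-GFP SNEL#2 and -0.21 in Oct4-GFP SNEL#1, against -1.85 in KH2 ESCs and -1.66 in Oct4-GFP ESCs. The 4 lines lowest in Spred1 were the 4 highest in Fos. Fosl1, the AP-1 subunit also called Fra-1, was well above background on 16 of 20 arrays and lay between -4.93 and -4.18. Its arrays of one line were up to 1.31 apart, and all 9 neighbouring pairs overlapped.

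**Figure D2:**
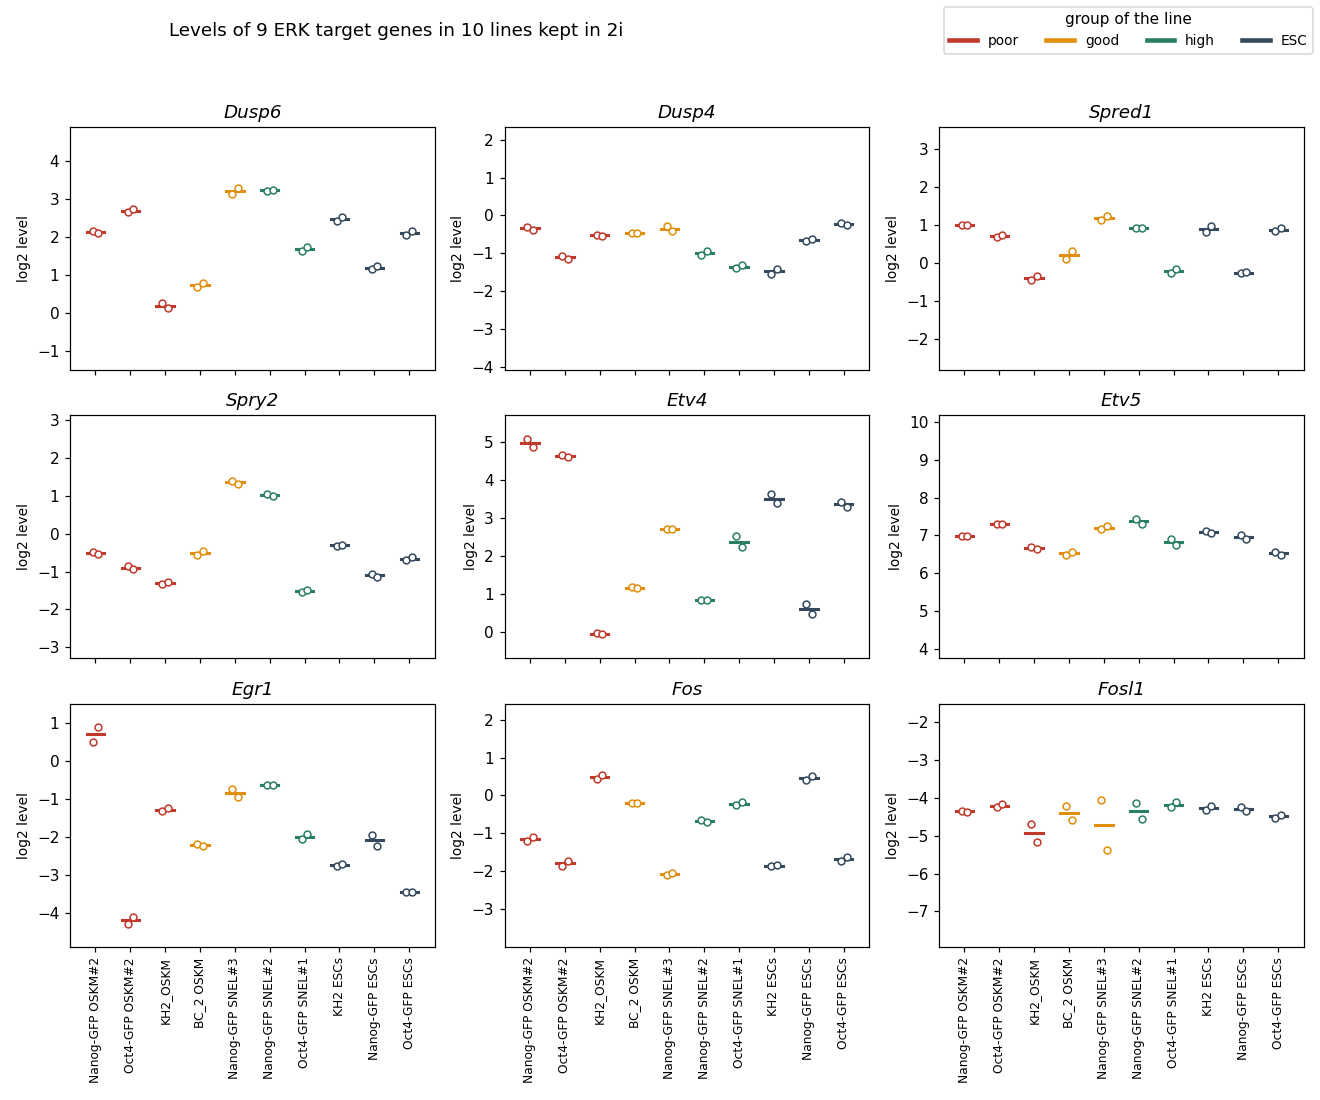
Level of each measured ERK target gene in the 10 lines (log2 processed signal minus the array's 75th percentile); circles are the 2 arrays of a line, bars their mean, colours the group, and all panels span the same number of log2 units, each about its own centre. Dusp6 and Spred1 are low in KH2_OSKM, BC_2 OSKM, Oct4-GFP SNEL#1 and Nanog-GFP ESCs, where Fos is high, and within each group the lines differ.

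No group of lines stood apart in these genes by the tests run. In each of the 6 comparisons (iPSC, poor, good and high lines against ESC lines, good and high against poor, and SNEL against OSKM), 0 of the 9 genes passed limma's test with Benjamini-Hochberg adjustment, and 0 of 9 had an unadjusted p under 0.05. The background was equally empty: 0% of all genes were called in the first 5 comparisons and 0.00736% in SNEL minus OSKM, which are 2 genes, Fgf22 and Grem1 (named after their values were seen). At an unadjusted p under 0.05 there were 1402 to 2648 genes per comparison. The comparisons with ESC lines share those 3 lines.

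In iPSC minus ESC lines, 6 of the 9 genes had a higher mean and 3 a lower one, with a median difference of 0.06, against a median of -0.04 over all genes. Egr1 had the largest difference. It averaged -1.50 ± 1.53 in iPSC lines (SD, n = 7) and -2.77 ± 0.68 in ESC lines (SD, n = 3), a difference of 1.27 ± 0.95 (SE; limma adjusted p = 0.811). Without Nanog-GFP OSKM#2 it was 0.91. Dusp6 averaged 1.98 ± 1.19 in iPSC lines and 1.92 ± 0.66 in ESC lines (SD), a difference of 0.06 with a 95% interval of -1.61 to 1.73, which leaves room for a change of over 3-fold in either direction. Levels of iPSC and ESC lines overlapped for all 9 genes, and 4.21% of all genes had levels that did not overlap. The median difference ran from -0.0150 without Nanog-GFP SNEL#3 to 0.2394 without KH2 ESCs. In the high lines, Egr1 alone of the 9 genes had line means above every ESC line, with 21.3% of all genes not overlapping in that comparison, and the arrays of Oct4-GFP SNEL#1 (-2.005) overlapped with those of Nanog-GFP ESCs (-2.10).

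In good and high minus poor lines, 7 of the 9 genes had a higher mean and 2 a lower one, the median difference was 0.09 against -0.04 over all genes, and the groups overlapped for all 9 (5.83% of genes did not overlap). Etv4 averaged 1.78 ± 0.91 in the good and high lines (SD, n = 4) and 3.195 ± 2.81 in the poor lines (SD, n = 3), a difference of -1.42 ± 1.32 (SE; limma adjusted p = 0.943). That value came to -3.04 without KH2_OSKM and -0.53 without Nanog-GFP OSKM#2, and the median difference over the 9 genes to -0.1286 without KH2_OSKM and 0.1601 without Oct4-GFP OSKM#2. Spry2 averaged 0.09 ± 1.34 in the good and high lines and -0.90 ± 0.39 in the poor lines, a difference of 0.99 ± 0.65 (limma adjusted p = 0.925), with Oct4-GFP SNEL#1 at -1.52 and both Nanog-GFP SNEL lines above 1.

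SNEL minus OSKM lines gave the largest difference for Dusp6, which averaged 2.71 ± 0.89 in SNEL lines (SD, n = 3) and 1.43 ± 1.17 in OSKM lines (SD, n = 4), a difference of 1.27 ± 0.66 (SE; limma adjusted p = 0.565). Spry2 averaged 0.28 ± 1.57 in SNEL lines and -0.80 ± 0.38 in OSKM lines, a difference of 1.09 ± 0.61 (limma adjusted p = 0.589). The median difference over the 9 genes was 0.25, against -0.02 over all genes, and ran from 0.0551 without KH2_OSKM to 0.4175 without Oct4-GFP SNEL#1. The groups overlapped for all 9 genes, and 7.68% of all genes did not overlap. Every SNEL line is graded good or high, and BC_2 OSKM is the only OSKM line not graded poor. Factors and grade therefore cannot be told apart in this comparison or in that of good and high against poor lines. Leaving out 1 line changed a call in SNEL minus OSKM. Without Oct4-GFP SNEL#1, Spry2 differed by 1.99 ± 0.29 and passed (limma adjusted p = 0.0307), as the only one of the 9 genes. In that setting 338 genes were called in place of 2. Both remaining SNEL lines carry the Nanog-GFP name. Of the other lines with that name, Spry2 was -0.51 in Nanog-GFP OSKM#2 and -1.10 in Nanog-GFP ESCs. The remaining OSKM lines lay between -1.29 and -0.51. The part of reporter background in the difference was not tested. In the other direction, the Spry2 difference came to 0.5545 without Nanog-GFP SNEL#3 (limma adjusted p = 0.982) and 0.7184 without Nanog-GFP SNEL#2 (limma adjusted p = 0.908). Within slide 2, which holds no array of Oct4-GFP SNEL#1, the Spry2 difference was 1.95 and the Dusp6 difference 1.83, and within slide 1, which holds all SNEL lines, they were 1.101 and 1.22.

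**Figure D3:**
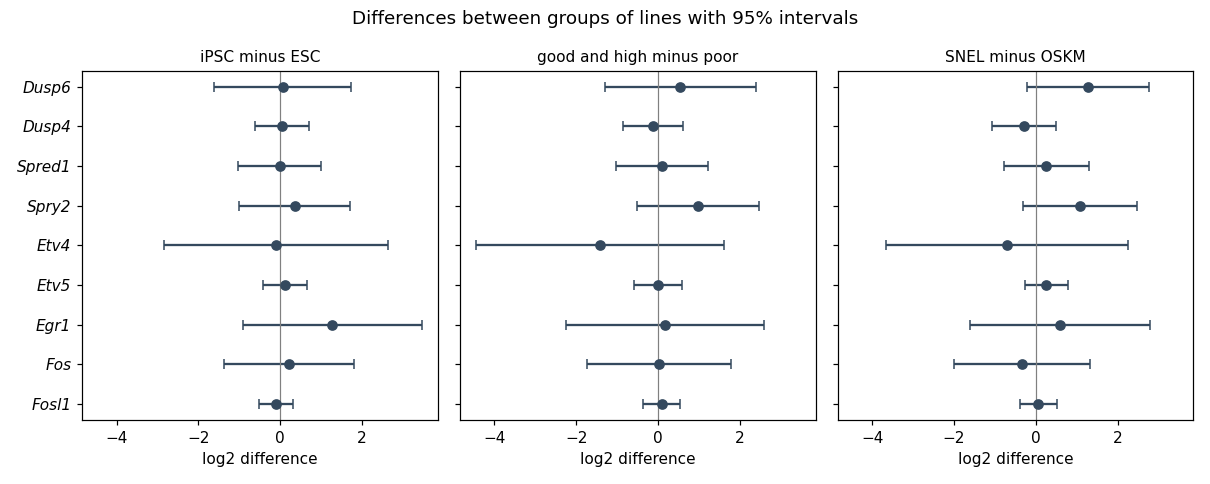
Fitted log2 difference of each measured ERK target gene in iPSC minus ESC, good and high minus poor, and SNEL minus OSKM lines, with 95% intervals from limma. Every interval crosses 0, and those of Etv4 and Egr1 are the widest.

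Whether the genes varied together across lines was asked for all 36 pairs of the 9 genes, by correlation over the 10 line means with two-sided permutation tests and adjustment over the 36 pairs. Lines that share a name (Nanog-GFP, Oct4-GFP or KH2) may not be fully independent. Fos and Spred1 ran opposite to each other (Pearson r = -0.892, permutation p = 0.00108, adjusted p = 0.0389; Spearman rho = -0.794, permutation p = 0.00831, adjusted p = 0.0703), and this was the 1 pair called by Pearson's r. By Spearman's rho 0 pairs were called. Leaving out the 2 lines farthest from the median of Spred1 gave r = -0.772, and r was -0.838 within slide 1 and -0.899 within slide 2. Of all genes, 3.04% were as closely correlated with Spred1 as Fos was. The call did not hold within either slide or without both Nanog-GFP SNEL lines, where 8 lines remain (r = -0.927, adjusted p = 0.0693), while r kept its sign in each.

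Dusp6 and Spred1 gave r = 0.844 (permutation p = 0.00279, adjusted p = 0.0502; rho = 0.818, permutation p = 0.00589, adjusted p = 0.0703), which missed the threshold over the 36 pairs. Set among the correlations of Dusp6 with all 27160 other genes it passed (adjusted permutation p = 0.0327), as did 13% of those genes. Without the 2 lines farthest from the median Dusp6 level, r was 0.812, and 7.74% of all genes were as closely correlated with Dusp6. The pairs next in order were Dusp6 with Fos (r = -0.789), Etv4 with Fos (r = -0.781), Dusp6 with Etv5 (r = 0.778), Spred1 with Spry2 (r = 0.738) and Dusp6 with Spry2 (r = 0.717), with adjusted p from 0.0787 to 0.102. In all 8 pairs had an unadjusted permutation p under 0.05, and the median r over the 36 pairs was 0.114. Dusp6 and Etv4 gave r = 0.53 (permutation p = 0.118, adjusted p = 0.387), and r was 0.144 without the 2 lines farthest from the median Dusp6 level. Set against the other lines, Nanog-GFP SNEL#2 had high Dusp6 and Spry2 and low Etv4.

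**Figure D4:**
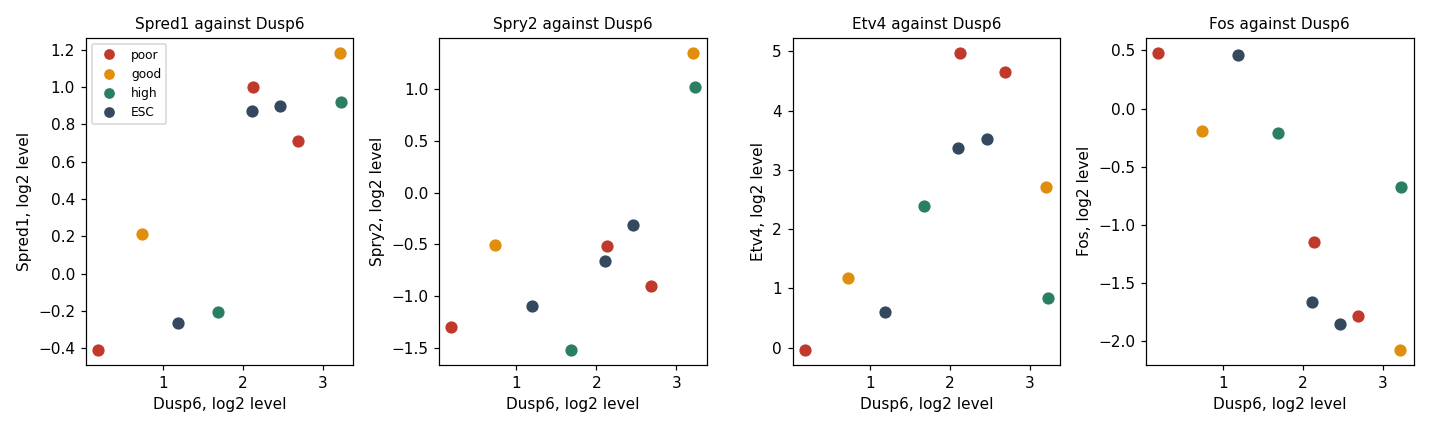
Line means of Spred1, Spry2, Etv4 and Fos (log2 level, vertical axes) against Dusp6 (log2 level, horizontal axes), 1 point per line, coloured by group. Spred1 climbs with Dusp6 and Fos declines, the 2 Nanog-GFP SNEL lines stand above the other 8 in Spry2, and the high line with the highest Dusp6 is low in Etv4.

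The other genes of the pathway were read from 3 lists: 25 other ERK targets and feedback genes, 21 other immediate early genes, and 33 genes of the cascade that runs from FGF to ERK. Of these 24, 19 and 33 were tested. In all 6 comparisons 0 of them passed. By the F test 23 of 24, 18 of 19 and 26 of 33 differed between lines, beside the 61.5% of all genes. The median SD over lines was 0.57 for the other targets, 0.51 for the other immediate early genes and 0.23 for the cascade. The cascade genes, which encode ligands, receptors, adaptors and kinases, had the smallest of these medians, below that of all genes. Among these lists, the smallest p in iPSC minus ESC lines belonged to Frs3, an FGF receptor adaptor (limma adjusted p = 0.268), Nf1, the Ras inhibitor neurofibromin (-0.45 ± 0.14, SE; limma adjusted p = 0.354), and Phlda1 (0.45 ± 0.17; limma adjusted p = 0.466). Frs3 was well above background on 6 of 20 arrays and on 0 arrays of 5 iPSC lines, so it is given no difference. Neither Frs3 nor Nf1 passed the F test between lines (limma adjusted p = 0.523 and 0.814). In good and high minus poor lines it belonged to Nr4a2, an orphan nuclear receptor (-1.51 ± 0.52), Fgfr1, an FGF receptor (-0.45 ± 0.19), and Frs3, each with a limma adjusted p of 0.925. Nr4a2 was well above background on 17 of 20 arrays and on 0 arrays of Nanog-GFP SNEL#3. Among the poor lines it was -1.21 in Nanog-GFP OSKM#2, -3.21 in Oct4-GFP OSKM#2 and -3.36 in KH2_OSKM. The good and high lines lay between -4.72 and -3.79.

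Against Dusp6, the 76 genes of these lists were correlated over the 10 lines, with permutation p-values adjusted over all 27160 other genes. Of the 76, 14 were called, 6 with positive and 8 with negative r. Of all genes, 7.31% were called with positive and 5.68% with negative r. Of the list genes these shares were 7.89% with positive r, close to that of all genes, and 10.5% with negative r. Those named below were chosen because they passed. Among those that followed Dusp6 were Etv1, the third PEA3 factor (r = 0.863, permutation p = 0.00157, adjusted p = 0.0246), and Ccnd1, which encodes cyclin D1 (r = 0.794, adjusted permutation p = 0.0495). Ier2 and Map2k2, which encodes MEK2, followed it as well. Spred3, a relative of Spred1, was also called, but it was well above background on 5 of 20 arrays and on 0 arrays of 6 lines, KH2_OSKM, BC_2 OSKM and Nanog-GFP ESCs among them, so its correlation rests on values near background and is not given. Etv1 stood at -0.39 in KH2_OSKM and 0.08 in BC_2 OSKM, and at 3.32 in Oct4-GFP OSKM#2, its highest line. Spearman's rho was 0.782 for Etv1 (permutation p = 0.0103) and 0.733 for Ccnd1 (permutation p = 0.0193). Without the 2 lines farthest from the median Dusp6 level, r was 0.624 for Etv1 and 0.698 for Ccnd1.

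Running opposite to Dusp6 were Maff, a small Maf factor (r = -0.937, permutation p = 8e-05, adjusted p = 0.00747; rho = -0.915, permutation p = 0.00047), Map2k1, which encodes MEK1 (r = -0.924, adjusted permutation p = 0.0098), Mcl1, an anti-apoptotic Bcl-2 relative (r = -0.919), Dusp1, a phosphatase of p38 and JNK (r = -0.882), and Errfi1, an inhibitor of the EGF receptor (r = -0.873). Klf10, Atf3 and Rps6ka3 did so too. Maff was 2.81 in KH2_OSKM and 2.52 in BC_2 OSKM, and -0.12 in Nanog-GFP SNEL#3. Without the 2 lines farthest from the median Dusp6 level, r was -0.871 for Maff, -0.794 for Map2k1 and -0.819 for Mcl1. The 2 MEK genes thus ran in opposite directions, Map2k1 over 4.24 to 4.995 and Map2k2 over 3.48 to 4.09 on the log2 scale, each within its own probe. Map2k2 passed close to the threshold (r = 0.806, adjusted permutation p = 0.0482). As closely correlated with Dusp6 as Map2k2 were 11.5% of all genes, and as Map2k1 1.72%. The count fell to 4 without both Nanog-GFP SNEL lines, 6 within slide 1 and 1 within slide 2, each over 8 lines.

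**Figure D5:**
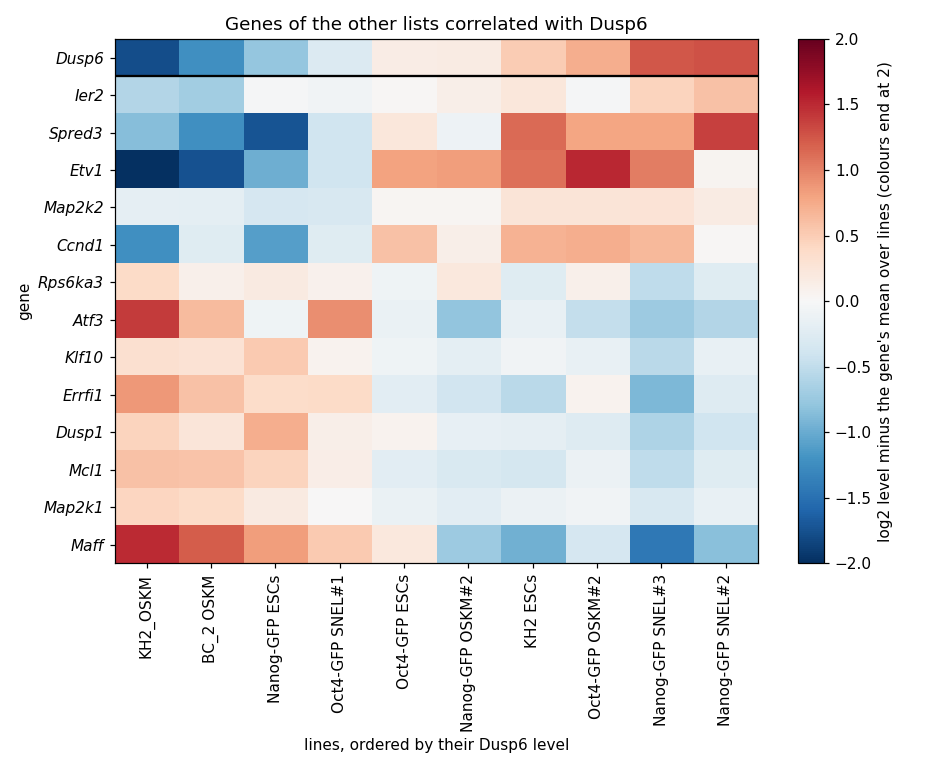
Levels of Dusp6 (top row) and of 13 genes of the other ERK lists correlated with it, as log2 level minus the gene's mean over the 10 lines, with lines ordered from low to high Dusp6. The 5 rows below Dusp6 redden to the right and the 8 rows below those redden to the left, and KH2_OSKM and BC_2 OSKM are the 2 highest lines in Maff and the 2 lowest in Etv1. The Spred3 row holds values near background in most lines.

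Beyond the lists, the genes whose levels ran most like the mean of the 9 genes over the 10 lines, among 21866 genes with an SD over lines of at least 0.2, were Pidd1 (r = 0.979), Mettl4 (r = 0.973), Cyp4a29 (r = 0.944) and 2 probes without a gene symbol. Those most like Dusp6 were Mat2a, which makes S-adenosylmethionine (r = 0.989), Nfyc, a subunit of the NF-Y factor (r = 0.987), and 1 probe named by its position. Each was picked as a maximum over that many genes, so the size of r carries no test.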

How the data were processed

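Total RNA of 10 lines was hybridised with Cy3 to 20 arrays on slides of 8, 8 and 4 arrays. Per the file headers, the authors deposited scanner intensity values made with Feature Extraction 10.1.1.1 on array design Agilent-028005, with probe coordinates on mm9, and the processed signal used here is background-subtracted and spatially detrended. Per the submitters' processing notes limma was used, with no version given. The authors' deposited value table holds log2 values that rank as the scanner's median signal (column medians 6.27 to 6.28), with no background subtraction seen, and served as an alternative.

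Control spots (62976 spots, 59305 not controls) and flagged values were left out, spots of a probe averaged (55681 probes), and log2 values scaled by each array's 75th percentile (513.3 to 914.3 in signal units). The filter asked for a signal well above background on 4 or more of the 20 arrays, and a gene took its brightest remaining probe. Symbols of 26407 probes were found in RefSeq, and those of 3092 probes changed. The 2 arrays of a line were averaged, and limma 3.58.1 in R 4.3.3 (with the data.table package, version 1.17.8) fitted 10 lines in 1 model per grouping; the F test used 20 arrays. Benjamini-Hochberg adjustment ran over 27161 genes, with a threshold of 0.05. Correlations used 100000 permutations. The tests were tried on simulated data. Precision is limited by the number of lines in the group comparisons and correlations, and by the 2 arrays of a line in the F test.

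The genes and lists were chosen with earlier results of these data known. The rule for named genes took all members, the 3 list genes of smallest p in 2 comparisons, the 5 genes most like the member mean and the 3 most like Dusp6; list genes correlated with Dusp6 were named after their values were seen, and 1 of them is not reported here. Alternatives covered scaling, background, filter, probes, slides, array numbers, left-out lines and the test.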

Additional observations from a re-analysis of the deposited data

How the results depend on the processing

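In the comparisons of groups, 0 of the 9 genes passed under every alternative run but one, SNEL minus OSKM without Oct4-GFP SNEL#1; leaving out a line there gave 0 to 1. The median SD over lines of the 9 genes was 0.94, and 0.823 with normexp background correction, 0.875 in the authors' value table, and 0.740 to 0.997 with a line left out. Between lines, 8 of 9 genes passed under all settings but the authors' table, which called 9, Fosl1 among them (adjusted p = 0.0129). With array number as a replicate block, the median difference was 0.0599 in iPSC minus ESC and 0.2546 in SNEL minus OSKM, and 8 of 9 genes differed between lines; each line has both numbers, so the block cannot move a difference, and it changed no call of these genes. With a line left out these medians ran from -0.0150 to 0.2394 and from 0.0551 to 0.4175. The difference between a line's arrays correlated over 0.1 in 29 of 45 pairs of lines (median 0.168, from -0.096 to 0.513), so that arrays of one number partly deviated together, but not in every pair, and the numbers were not taken as pairing the arrays.

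Pairs called numbered 1, against 2 on first arrays, 0 within slide 1, 0 within slide 2 and 0 without both Nanog-GFP SNEL lines. Genes of the other lists correlated with Dusp6 numbered 14, against 9 on second arrays, 6 within slide 1, 1 within slide 2 and 4 without both Nanog-GFP SNEL lines; these alternatives were chosen after seeing the data. Over all genes, the 2 calls in SNEL minus OSKM became 87 when the 20 arrays were fitted with line as a random block, 47 with the replicate block added and 11 with slide as a block, and 0 with trend; over all alternatives it ran from 0 to 338, and in the other 5 comparisons from 0 to 42. No array lacks 2i, so the effect of MEK inhibition was not analysed here, and good and high hold 2 lines each.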

Other observations

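Genes named here were chosen after their values were seen, with no test. Gata6, a primitive endoderm factor that needs FGF and ERK in the embryo, was -0.70 in KH2_OSKM, -1.58 in BC_2 OSKM, -0.71 in Oct4-GFP SNEL#1 and -0.69 in Nanog-GFP ESCs, the lines lowest in Dusp6, and -3.30 in Nanog-GFP OSKM#2, -2.31 in Oct4-GFP OSKM#2, -3.95 in Nanog-GFP SNEL#3, -3.44 in Nanog-GFP SNEL#2, -3.50 in KH2 ESCs and -3.29 in Oct4-GFP ESCs. Gata4, of the same list of primitive endoderm markers, was also highest in the first 4 of these lines, at -0.41, -1.23, -1.10 and -0.71. It lay between -2.02 and -1.31 in the other 6. Sox17 came near that division, but Nanog-GFP ESCs (-3.08) lay below Oct4-GFP OSKM#2 (-2.95). Sox7, of the same list, divided these lines the opposite way, at -5.41, -6.96, -4.89 and -5.01 in those 4 lines (0 to 2 arrays of a line well above background). It lay between -3.81 and -1.82 in the other 6, and Dab2 followed neither pattern. Dnmt3b, a DNA methyltransferase of primed cells, ran opposite to Gata6, at 2.69 in KH2_OSKM, 2.20 in BC_2 OSKM, 3.27 in Oct4-GFP SNEL#1 and 3.51 in Nanog-GFP ESCs. It lay between 4.49 (Oct4-GFP ESCs) and 5.86 (Nanog-GFP OSKM#2) in the other 6 lines. Krt18, of the same list of primed epiblast markers, was 4.53 in KH2_OSKM, 4.39 in BC_2 OSKM, 2.67 in Oct4-GFP SNEL#1 and 3.21 in Nanog-GFP ESCs, and 1.44 to 2.87 in the other 6. It was thus highest in KH2_OSKM, BC_2 OSKM and Nanog-GFP ESCs, where Dnmt3b was low. In Oct4-GFP SNEL#1, also low in Dnmt3b, it lay below its level in KH2 ESCs (2.87). Dnmt3a, also of that list, was highest in Nanog-GFP ESCs (0.14), KH2_OSKM (-0.20) and Oct4-GFP SNEL#1 (-0.22), and -0.41 in BC_2 OSKM. It lay between -1.24 and -0.36 in the other 6 lines. Lef1 was highest in Nanog-GFP ESCs (0.71) and Oct4-GFP SNEL#1 (0.39), and lowest in KH2_OSKM (-2.01) and BC_2 OSKM (-1.53). Foxd3 came near the division of Dnmt3b, but was lowest in Oct4-GFP ESCs (-1.45). Otx2, Fgf5, Pou3f1, Sall2 and Zic2 followed neither Krt18 nor Dnmt3b. The mean of 10 primitive endoderm markers ran from -3.45 in Nanog-GFP SNEL#3 to -2.21 in Oct4-GFP SNEL#1, and that of 10 primed epiblast markers from 0.03 in BC_2 OSKM to 0.83 in KH2 ESCs. The mean of 20 fibroblast markers was between -0.53 and 0.18 in the ESC lines and Oct4-GFP SNEL#1, and between -2.87 and -1.71 in the other iPSC lines, which is not the order of Dusp6. Their part in the levels of the ERK target genes was not tested.

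Eif2s3y, a Y-linked gene, was well above background on both arrays of 9 lines and on neither array of Nanog-GFP ESCs (-7.89). It was -0.97 in KH2_OSKM and -2.91 in BC_2 OSKM, and between 0.84 and 3.70 in the other 7 lines, so its 3 lowest lines were the 3 lowest in Dusp6. Whether these are linked was not tested.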
